A study of Mus musculus with 2 samples.

Results

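The 10 genes described here, Slc2a1, Hk2, Pfkp, Pgk1, Eno1, Ldha, Vegfa, Adm, Car9 and Bnip3, are genes of glycolysis and of the response to low oxygen. They were chosen by symbol, as a list of known targets of hypoxia and steps of glucose use, and they are 10 of the 32285 features measured. Transcripts were counted by Visium, in which a tissue section lies on an array of barcoded spots and each spot collects the RNA of the several cells above it. There were 2 sections, 1 per condition, both of lung. The metastatic section came from a female Balb/c mouse that received 4T1 cells, a mouse mammary tumour line, in the mammary fat pad at 6 to 8 weeks of age and was euthanized 21 to 23 days later. The control section came from a mouse without treatment, whose strain, sex and age are not given in the sources used here. The metastatic lung was fresh-frozen. Since each condition had 1 section, the section, the library and the animal cannot be told apart from the condition, and no test over spots was made.

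In low oxygen the transcription factors HIF-1 and HIF-2, made of an oxygen-sensitive alpha subunit (Hif1a, Epas1) and Arnt, escape prolyl hydroxylation and degradation and bind short DNA elements with the core ACGTG. Their targets bring glucose into the cell and speed its conversion to lactate (Slc2a1, Hk2, Pfkp, Pgk1, Eno1, Ldha), call for new vessels and widen existing ones (Vegfa, Adm), buffer acid (Car9) and act in mitophagy (Bnip3). Several of the same genes are also raised by oncogenic growth signals whatever the oxygen, and Vegfa is made by alveolar type I (AT1) cells of healthy lung.

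The promoters of 4 members are printed here because the motif occurs in them and because their genes stand for the different patterns described below: Ldha and Pgk1 for the glycolysis genes, Bnip3 for a small group of spots at the metastases, and Car9 for a gene near the limit of detection. Each runs from 250 bases before to 50 bases after the transcription start in the RefSeq table for GRCm38.p6, the build named mm10 in the submitters' notes, and capitals mark each ACGTG on either strand, so that CACGTG in capitals holds 2 overlapping matches.
Ldha, chr7:46845554-46845853, plus strand: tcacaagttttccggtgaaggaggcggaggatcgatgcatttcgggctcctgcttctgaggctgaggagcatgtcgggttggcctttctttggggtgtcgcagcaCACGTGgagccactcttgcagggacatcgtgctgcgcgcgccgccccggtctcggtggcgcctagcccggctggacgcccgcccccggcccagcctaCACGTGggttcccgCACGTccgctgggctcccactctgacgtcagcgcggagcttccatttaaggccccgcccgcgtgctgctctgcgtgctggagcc
Pgk1, chrX:106186850-106187149, plus strand: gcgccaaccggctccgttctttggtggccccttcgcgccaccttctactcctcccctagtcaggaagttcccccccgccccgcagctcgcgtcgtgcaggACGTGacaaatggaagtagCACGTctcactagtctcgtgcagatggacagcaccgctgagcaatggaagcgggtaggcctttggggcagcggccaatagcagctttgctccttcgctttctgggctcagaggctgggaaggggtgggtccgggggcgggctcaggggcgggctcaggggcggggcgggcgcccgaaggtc
Bnip3, chr7:138909457-138909756, minus strand: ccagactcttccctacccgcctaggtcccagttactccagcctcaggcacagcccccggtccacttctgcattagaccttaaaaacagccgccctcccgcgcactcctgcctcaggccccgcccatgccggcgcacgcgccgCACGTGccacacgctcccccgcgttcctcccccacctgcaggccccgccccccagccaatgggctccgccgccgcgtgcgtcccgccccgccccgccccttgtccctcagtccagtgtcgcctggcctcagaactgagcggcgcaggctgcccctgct
Car9, chr4:43506776-43507075, plus strand: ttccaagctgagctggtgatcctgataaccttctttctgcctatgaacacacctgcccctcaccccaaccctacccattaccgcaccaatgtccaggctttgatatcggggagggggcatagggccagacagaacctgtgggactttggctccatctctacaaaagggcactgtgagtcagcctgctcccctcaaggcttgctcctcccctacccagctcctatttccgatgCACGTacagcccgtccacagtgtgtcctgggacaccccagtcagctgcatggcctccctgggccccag
The motif was found in a promoter of 7 of the 10 members (Slc2a1, Hk2, Pgk1, Ldha, Vegfa, Car9 and Bnip3) and in 7 of their 14 listed promoters, against 19.6% of all 32851 promoters and 21.8% of the 27025 genes in the table. Ldha had 5 matches at its first start site, of which 2 pairs overlapped in CACGTG. Vegfa had none at its first listed start site and 1 at its second. Pfkp, Eno1 and Adm had none in this window. A match is a string of letters and does not show binding.

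Spots of the metastasis interior were found by transcripts that were nearly absent from the control lung: Csn3, a milk casein, Etv4, an ETS factor, and Mmp3, a matrix metalloproteinase. Each gene's level in a spot, in counts per 10000 counts (CP10k), was divided by its 98th percentile in the section and capped at 1, and the mean of the 3 was the interior score. Spots with a score of at least 0.5 and at least 2 such neighbours were called interior (38 spots with 955351 counts, median 24634.5 per spot). Spots within 200 µm were the margin (49 spots, 773986 counts), those from 200 to 500 µm intermediate (52 spots, 695197 counts) and those beyond 500 µm far (964 spots, 12127778 counts). The control section held 1888 spots and 20329126 counts, with a median of 9643.5 per spot. Just inside the limit the scores were 0.525 and 0.535 and just outside 0.476 and 0.472. The 7 spots past the limit without 2 such neighbours were kept out of these regions. The interior formed a larger metastasis of 31 spots and a smaller one of 7, and only 3 interior spots had no neighbour outside. Any adjacent spot not called interior counted as outside, so gaps in the call within a metastasis also lower this number.

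The 3 chosen genes set the regions apart by construction, with Csn3 at 0.869 CP10k in the interior, 0.155 in the margin and 0 in the control section, where a count of 0 allows up to 0.00148. Markers fixed for 4T1 epithelium (Epcam, Krt7, Krt8, Krt18, Krt19, Cldn4) did not follow the interior: their sum was 4.94 CP10k there and 6.51 far away, with 1 of 5 tested markers past 2-fold higher, 3 lower and Cldn4 at 0. The sum was 9.87 CP10k in the control section, from a mouse without 4T1 cells, so these genes did not single out tumour cells here. Cell cycle genes were at 10.7 CP10k in the interior and 1.44 far away. Markers of AT1, AT2, airway and endothelial cells were all lower in the interior than far away, and the 7 macrophage markers were all higher, with a sum of 15.7 CP10k in the interior, 17.8 in the margin, 5.94 far away and 3.13 in the control section. Scgb1a1, the secretoglobin of club cells, made 2213 CP10k far away and 23.8 in the interior, which enters the total by which every level is divided. Without 454 haemoglobin, mitochondrial, surfactant, immunoglobulin and secretoglobin genes in the total, every log2 ratio of interior over far shifted by -0.49 and that of interior over control by -0.40, and the members are given in both ways below. In such mixtures, fewer cells of a type and less RNA per cell cannot be told apart.

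**Figure D1:**
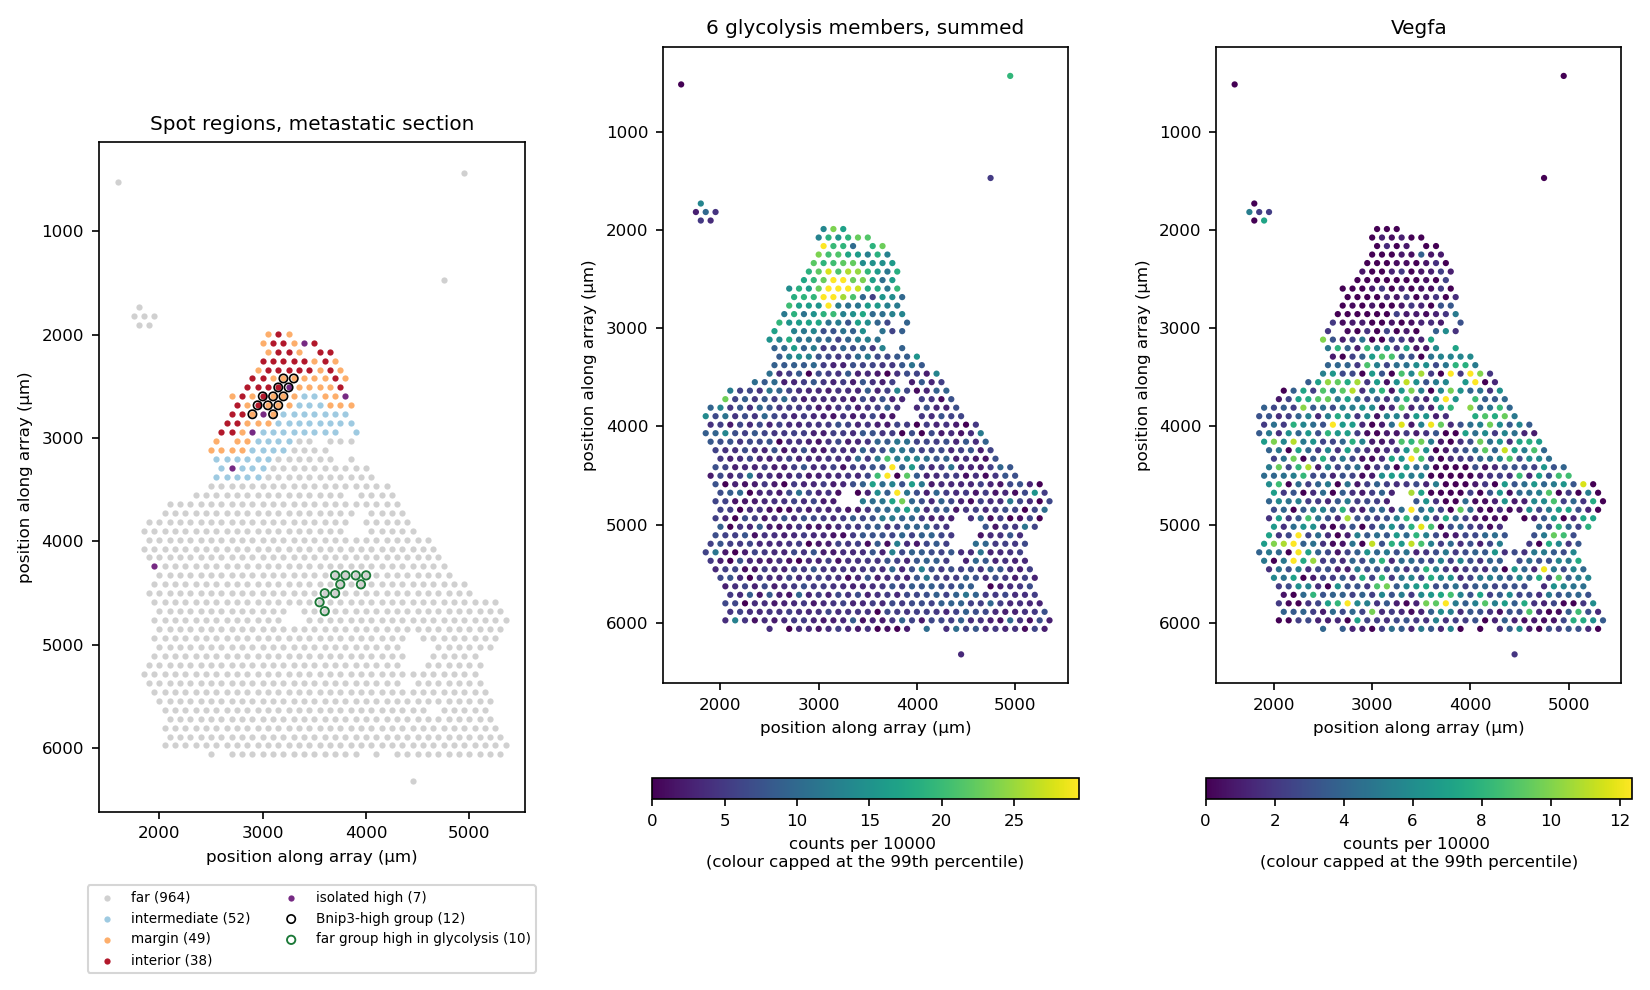
Each point is a spot of the metastatic section at its array position in µm: at left by region, with the Bnip3-high group of 12 spots and a group of 10 far spots outlined, in the middle coloured by the summed level of the 6 glycolysis members, and at right by Vegfa (CP10k, colour capped at the 99th percentile). Glycolysis transcripts were high over the whole end of the section that holds the metastases, at 19.4 CP10k in the interior against 5.21 in the far region, where Vegfa reached 3.66 CP10k against 0.345 in the interior.

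The glycolysis members other than Hk2 were at least 2-fold higher in the interior than in far lung, and all 6 were so against control lung, whereas none of the other 4 members with enough counts was. Between interior and far spots, 9 members had at least 50 counts in both together. Of these, 5 were at least 2-fold higher (Eno1, Pfkp, Pgk1, Ldha, Slc2a1) and 2 at least 2-fold lower (Vegfa, Adm). Of all 11860 genes with that many counts, 19.3% were at least 2-fold higher and 22.8% at least 2-fold lower. Of the called genes 45.8% were higher, or 23% without the abundant genes in the total. The median log2 ratio was 1.39 over the members and 0.12 over all genes. Between interior and control, 6 of 9 members were higher, which were the 6 glycolysis members, and 1 was lower (Vegfa), against 17.9% and 28.9% of 12997 genes, with median log2 ratios of 2.05 and -0.06. Here 38.2% of the called genes were higher, or 23.4% without the abundant genes. Summed over all 10 members, the ratio was 2.14 for interior over far (2.04 to 2.25) and 2.14 for interior over control (2.04 to 2.24). Ranges in parentheses are exact 95% intervals that cover counting error only.

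Glucose entry and its first steps came first in the pathway. Slc2a1, the glucose transporter GLUT1, was at 0.701 CP10k in the interior (67 counts), 0.672 in the margin, 0.575 in the intermediate zone, 0.270 far away and 0.138 in the control section. The intervals of the first 3 regions overlapped, and far lung lay above control lung with intervals that did not. Per spot the level ran from 0 to 2.33 in the interior, with a median of 0.701, and the median spot of far and of control lung had none. Its ratio was 2.60 for interior over far (1.97 to 3.39) and 5.09 for interior over control (3.84 to 6.67). Without the abundant genes in the total, the ratio to far spots was 1.85 (1.40 to 2.41), under 2-fold. Hk2, the hexokinase that traps glucose in the cell, rested on 10 counts in the interior, 10 in the margin, 11 in the intermediate zone, 64 far away and 78 in the control section. Its ratio of 1.98 to the far spots had an interval that covered 1 (0.908 to 3.89), and that to the control section was 2.73 (1.26 to 5.29), or 2.07 with an interval that covered 1 without the abundant genes in the total (0.955 to 4.01). Pfkp, the platelet isoform of phosphofructokinase, was at 2.07 CP10k in the interior, 1.82 in the margin, 1.25 in the intermediate zone, 0.435 far away and 0.455 in the control section. All 38 interior spots had a Pfkp count, with per-spot levels from 0.670 to 3.58 and a median of 2.25, whereas the median far spot had none. Its ratio was 4.77 to far (4.03 to 5.63) and 4.56 to control (3.89 to 5.32).

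Of the later steps of the pathway, Pgk1, Eno1 and Ldha, all 3 were higher in interior and margin than in far and control spots. Pgk1, the first ATP-yielding enzyme of glycolysis, was at 4.55 CP10k in the interior, 4.66 in the margin, 2.82 in the intermediate zone, 1.05 far away and 0.912 in the control section. Per spot it ran from 1.69 to 9.38 in the interior, with a median of 4.09, and from 0 to 23.5 far away, with a median of 0.900, so the regions overlapped spot by spot. Its ratio was 4.34 to far (3.88 to 4.84) and 4.99 to control (4.49 to 5.55). Eno1, enolase, was at 1.10 CP10k in the interior, 1.07 in the margin, 0.690 in the intermediate zone, 0.187 far away and 0.249 in the control section, with a per-spot median of 0.975 in the interior and 0 far away. It was the only glycolysis member whose interval lay below 1 for far over control, being lower in far than in control lung (ratio 0.751, 0.639 to 0.879). Its ratio to far, 5.87 (4.61 to 7.43), was the highest of the members with at least 50 counts, and 4.41 to control (3.54 to 5.45). Eno1b is a near-identical copy of Eno1, so reads of the pair may have been split or lost in counting. Eno1b had 29 counts in the interior and a ratio of 6.24 to far (3.86 to 9.89).

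Ldha, the lactate dehydrogenase subunit that favours lactate, gave 54.4% of the 1917 member counts in the interior. It was at 10.9 CP10k in the interior, 10.8 in the margin, 6.59 in the intermediate zone, 3.22 far away and 2.64 in the control section. The lowest interior spot had 4.67 CP10k, the median 10.5 and the highest 16.8, against medians of 2.91 far away and 2.36 in the control section. Its ratio was 3.39 to far (3.16 to 3.63) and 4.13 to control (3.87 to 4.42). Without the abundant genes in the total, the ratios to far were 2.41 for Ldha, 3.09 for Pgk1, 3.39 for Pfkp and 4.18 for Eno1. These 4 thus stayed past 2-fold, and 4 members in all were higher and 3 lower (Vegfa, Adm and Bnip3) in that setting.

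**Figure D2:**
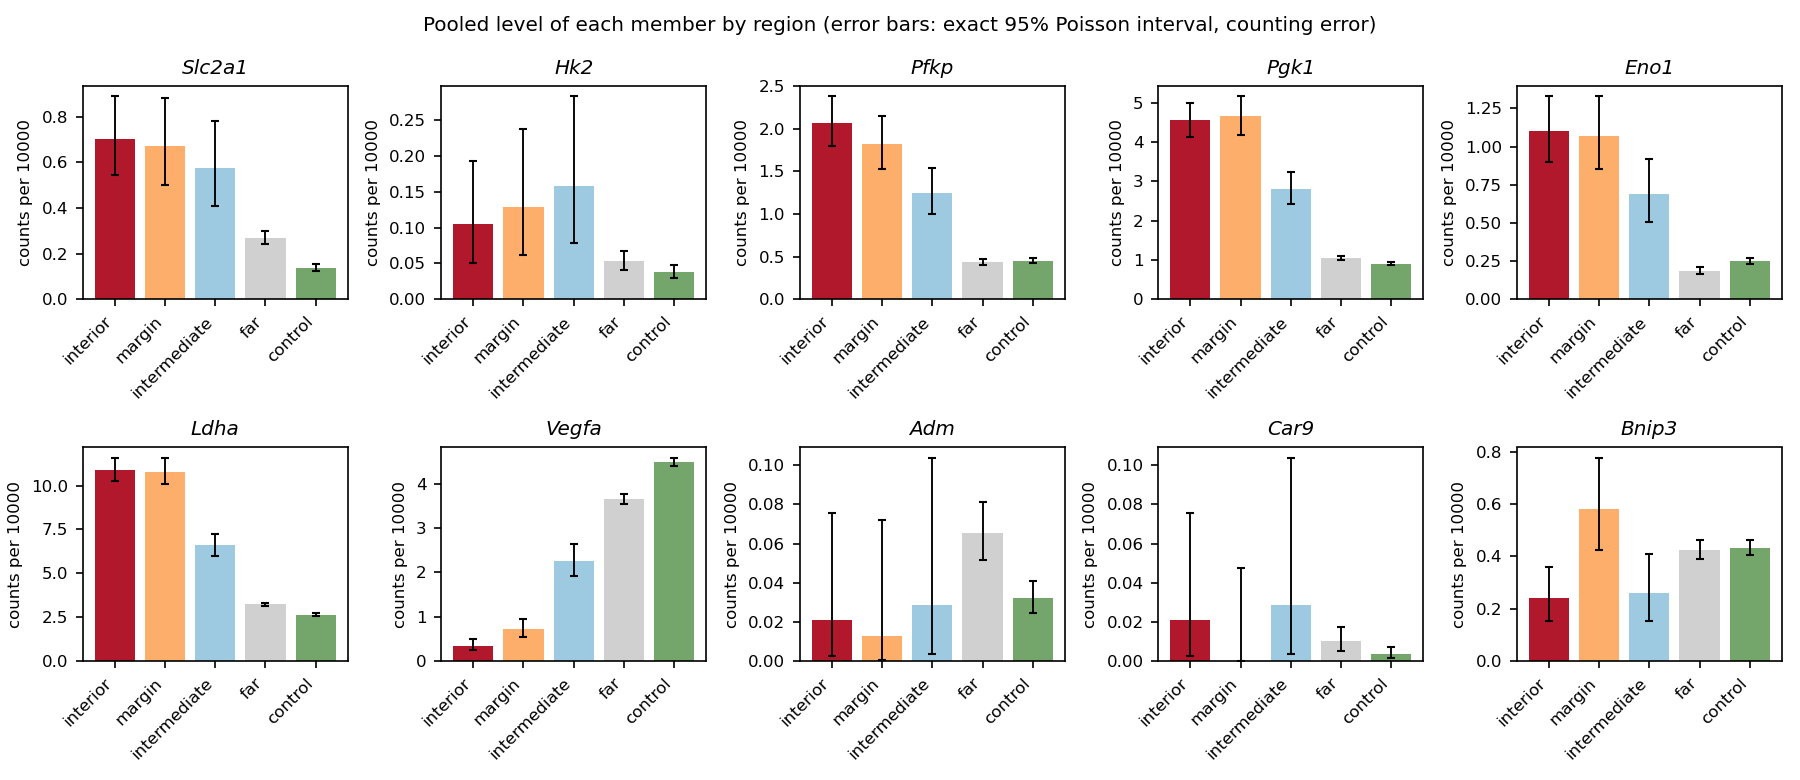
Bars show the pooled level of each member in the interior (38 spots), margin (49), intermediate zone (52), far region (964) and control section (1888), in counts per 10000 on axes that start at 0 and differ between genes, and error bars the exact 95% Poisson interval. The glycolysis members other than Hk2 stood high in interior and margin, Vegfa ran the opposite way, and the wide bars of Hk2, Adm and Car9 reflect counts of 0 to 11 in the 3 regions nearest the metastases.

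The margin as drawn lay close to the interior in the summed glycolysis members. Their sum was 19.4 CP10k in the interior and 19.2 in the margin, and none of the 7 members with enough counts was 2-fold higher in the interior, where 0.788% of 5458 genes were. Vegfa and Bnip3 were at least 2-fold lower, as were 2.05% of genes. The ratio of all 10 members summed was 0.980 (0.916 to 1.05). The margin as drawn still held metastasis transcripts: its 24 spots with an interior score of 0.2 or more had 22.5 CP10k of the glycolysis members, and its 25 spots under 0.2 had 15.7. It also held 8 of the 12 spots of a Bnip3-high group described below, where the glycolysis members were at 28.3 CP10k. Against far spots, 6 of 9 members were at least 2-fold higher in the margin and 2 lower, where 17.4% and 18% of all genes were. Of those called, 49.1% were higher, or 22.1% without the abundant genes. The smaller metastasis had 19.1 CP10k in its interior and 14.6 in its margin, and the larger one 19.5 and 20.7, so their margins differed in direction from their interiors.

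By distance, the summed glycolysis members were at 18.8 CP10k within 100 µm of the interior and 19.95 from 100 to 200 µm. They then fell to 14.0, 11.6 and 10.5 over the next rings of 100 µm, to 6.58 between 600 and 800 µm and to 4.65 between 1000 and 1500 µm. Beyond 1500 µm, where 697 spots lay, they were at 5.15 (4.999 to 5.3), above the ring before it (4.35 to 4.95), and the control section was at 4.43. Macrophage markers stayed between 15.0 and 19.0 CP10k out to 500 µm, where the glycolysis members were already falling. Beyond 500 µm both fell, to 5.46 for the macrophage markers and 5.74 for the glycolysis members at 800 to 1000 µm. In the far region the tenth of spots richest in macrophage markers had 9.63 CP10k of the glycolysis members against 4.86 in the other far spots (ratio 1.98, 1.84 to 2.13), and Pfkp had a ratio of 3.06 (2.45 to 3.81). The spots richest in T and NK cell markers, of which 35 of 96 were the same, had ratios of 1.59 for the glycolysis members and 3 for Pfkp (2.41 to 3.71). In the control section macrophage-rich spots had a ratio of 1.25 for the glycolysis members. The part of these cells in the level of the metastases was not tested. The far region also held the spots from 500 to 800 µm and the 10 far spots described below, where macrophage markers were at 22.5 CP10k. The part of such spots in the ratios for the far region was not tested.

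**Figure D3:**
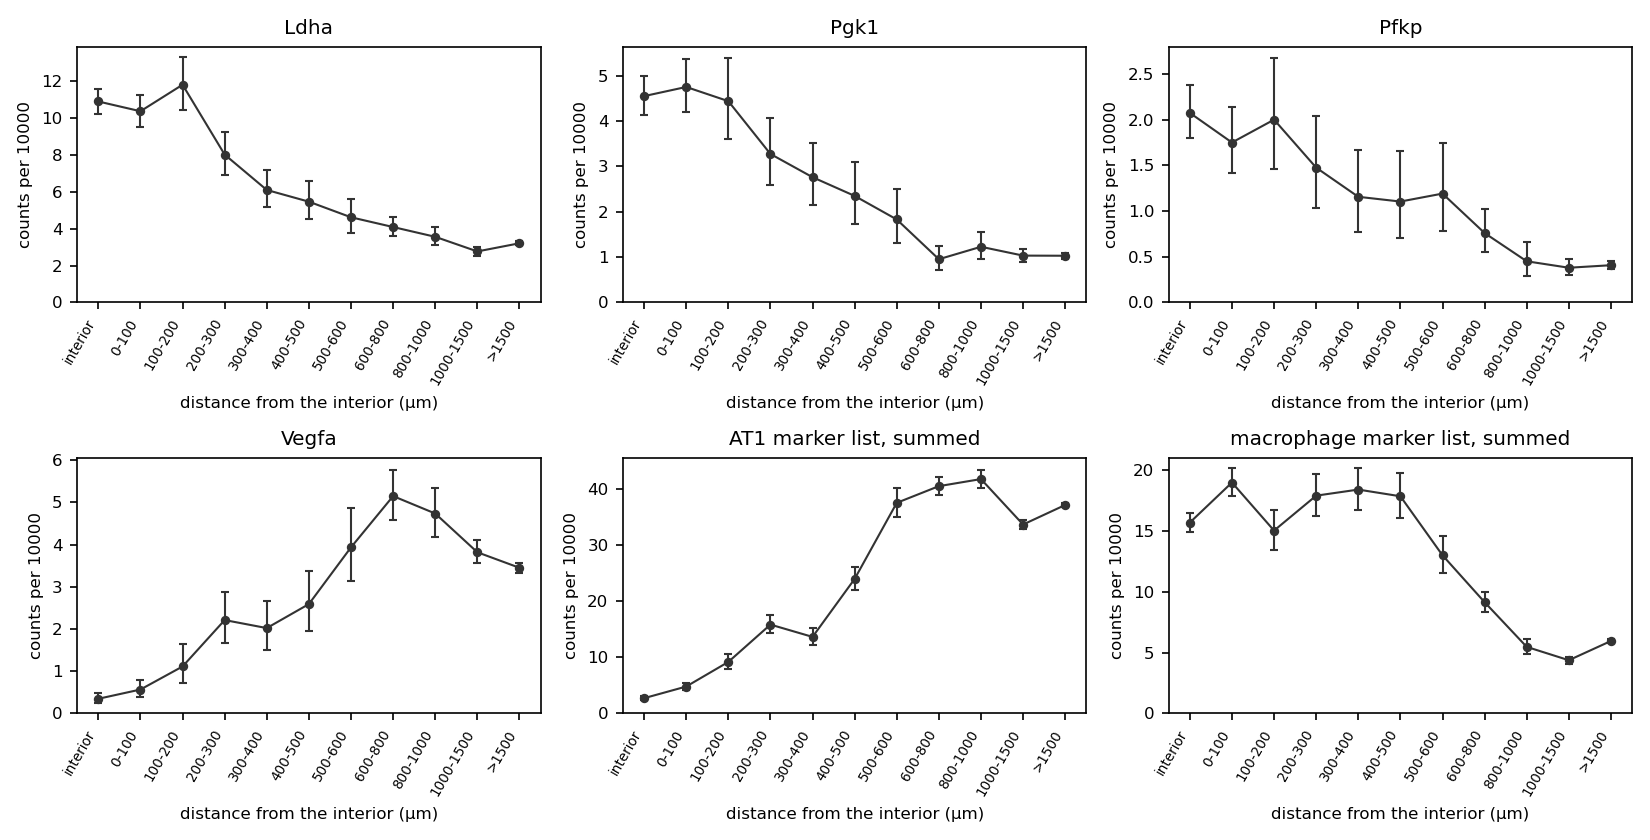
Points show pooled levels (counts per 10000, axes from 0) in the interior and in rings of distance from it in µm, with exact 95% Poisson intervals, for Ldha, Pgk1, Pfkp, Vegfa and the summed AT1 and macrophage markers. Ldha, Pgk1 and Pfkp were level to 200 µm and then declined with distance, Vegfa and the AT1 markers rose together, and macrophage markers stayed high to 500 µm.

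**Figure D4:**
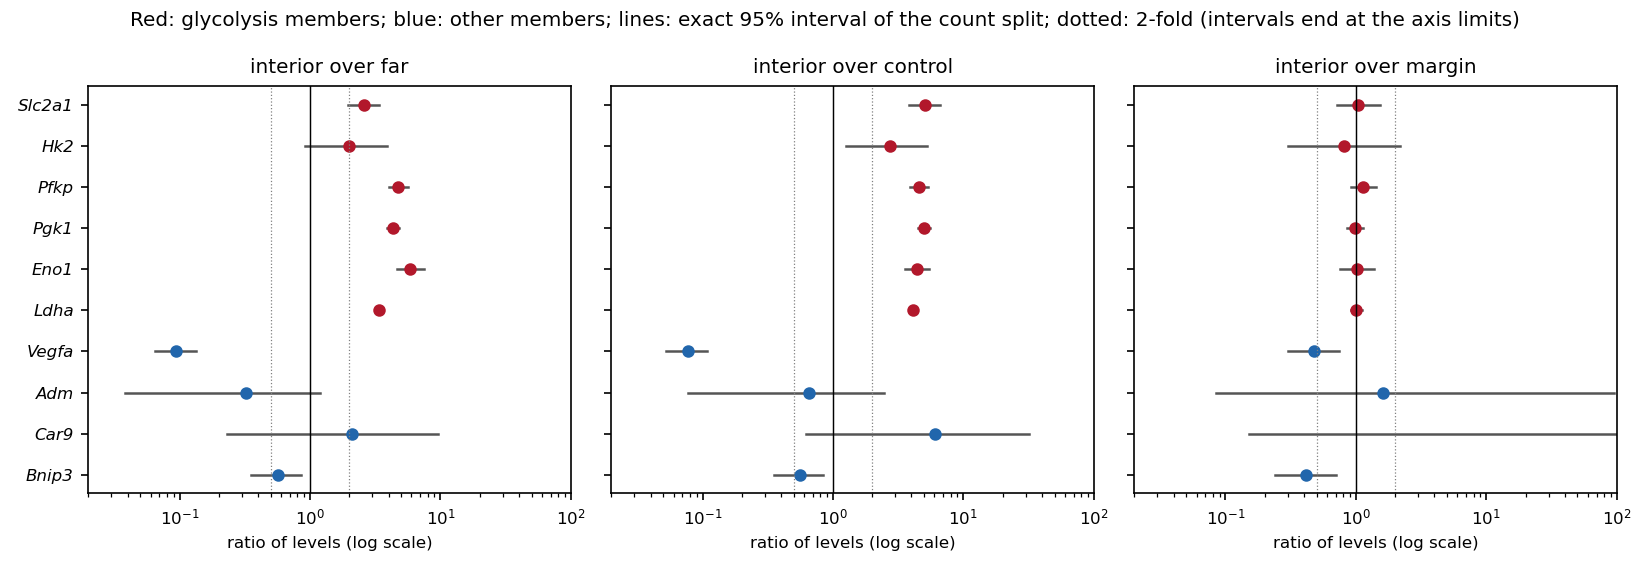
Points show the ratio of pooled levels of each member on a log axis, for interior over far, over control and over margin. Lines show the exact 95% interval, which ends at the upper axis limit for Car9 over margin. Car9 had 0 counts in the margin and has no point there. Red glycolysis members lie near 1 against the margin and mostly beyond the dotted 2-fold line against far and control, while Vegfa lies at 0.0944 and 0.0768.

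Of the members outside glycolysis, Vegfa, the main growth factor of vessel endothelium, went the opposite way. Its level was 0.345 CP10k in the interior (33 counts), 0.724 in the margin, 2.26 in the intermediate zone, 3.66 far away and 4.50 in the control section. Of the 38 interior spots only 16 had a Vegfa count, and the medians per spot were 0 in the interior, 3.49 far away and 4.67 in the control section. Its ratio was 0.0944 to far (0.0649 to 0.133) and 0.0768 to control (0.0529 to 0.108). The 8 AT1 markers fell alongside, from 50.8 CP10k in the control section and 36.9 far away to 6.05 in the margin and 2.70 in the interior. Set against these markers, Vegfa was not lower in the interior, where it had 12.8 counts per 100 AT1 counts (8.62 to 18.4), against 11.97 in the margin, 12.9 in the intermediate zone (10.9 to 15.3), 9.92 far away (9.62 to 10.2) and 8.86 in the control section (8.67 to 9.05). Within each lung, the tenth of spots richest in AT1 markers had more Vegfa, with ratios to the other spots of 2.23 far away and 2.07 in the control section, and airway-rich spots had less, at 0.227 and 0.151.

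The receptors of these ligands were lower as well. Of 6 genes for VEGF and adrenomedullin receptors, Flt1 had the highest ratio of interior over far, 0.258, followed by Ramp3 at 0.109 and Kdr, the main VEGF receptor, at 0.0788. Calcrl and Ramp2, which together form an adrenomedullin receptor, had the lowest, 0.0391 and 0.0420, apart from Nrp1 with 0 counts in the interior, which allows up to 0.0314 CP10k, against 0.0429 far away. Against the control section the order was the same, from 0.290 for Flt1 to 0.0426 for Calcrl. Endothelial markers fell from 24.3 CP10k far away to 1.32 in the interior. Adm, the vasodilator adrenomedullin, had 2 counts in the interior, 1 in the margin, 2 in the intermediate zone, 79 far away and 65 in the control section. Its ratio of interior over far was 0.321 with an interval that covered 1 (0.0383 to 1.2).

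Adm was the only member past 2-fold between far and control lung, where 1.63% of 13597 genes were at least 2-fold higher and 3.41% at least 2-fold lower. Its ratio was 2.04 (1.45 to 2.87), and Slc2a1 lay just under the limit at 1.96 (1.66 to 2.31), and at 2.09 without the abundant genes in the total. The other members with at least 50 counts ran from 0.751 for Eno1 to 1.38 for Hk2. Neutrophil markers were 10.5 times higher in far than in control lung and macrophage markers 1.90 times, and their part in these values was not tested. Far spots richest in neutrophil markers had Adm at 1.79 times the level of other far spots (0.881 to 3.34) and Slc2a1 at 1.12 times (0.757 to 1.61), both with intervals that covered 1. AT2-rich far spots had Adm at 2.55 times the level of other far spots (1.32 to 4.58), and macrophage-rich far spots had Adm at 0.160 times (0.00399 to 0.917) and Slc2a1 at 1.59 times (1.10 to 2.24). In the control section, unlike the far region, Adm was higher than in the other spots in macrophage-rich spots (ratio 3.51, 1.83 to 6.34) and in spots rich in fibroblast and smooth muscle genes (3.37, 1.79 to 6.03). Hk2 was 6.44 times higher there in spots rich in cardiac muscle genes (3.97 to 10.3), a compartment at 29.3 CP10k in the control section and 0.0717 in the far region.

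Car9, the membrane carbonic anhydrase IX that is often used as a marker of hypoxic tumour, had 2 counts in the interior, 0 in the margin, 2 in the intermediate zone, 12 far away and 7 in the control section. A count of 0 in the margin allows up to 0.0388 CP10k. The ratio of interior over far was 2.12 (0.230 to 9.50), so no difference was detectable at this depth. Bnip3, a mitochondrial receptor of mitophagy, was lower in the interior than in margin, far and control spots, at 0.241 CP10k (23 counts), against 0.581 in the margin (45), 0.259 in the intermediate zone (18), 0.426 far away (516) and 0.433 in the control section (881). Its ratio was 0.414 to the margin (0.239 to 0.699), 0.566 to far (0.356 to 0.859) and 0.556 to control (0.350 to 0.839). These directions depended on which spots were called interior. When Mmp3 was left out of the interior score, the ratios were 1.44 to the margin, 1.13 to far and 1.12 to control, and with Csn3 alone they were 1.34, 1.03 and 1.01. A score limit of 0.3 gave 1.53 to the margin and 1.00 to far.

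Most spots high in Bnip3 near the metastases lay together, in a group with 38 Bnip3 counts, against 34 in the other 82 spots. Among the 94 interior, margin and isolated high spots, 13 had at least 1 CP10k and 2 counts of Bnip3, and 12 of these touched each other in a group that spanned 400 by 346 µm. In the far region 97 of 964 spots passed the same limit, and the largest connected group had 4. The group held 8 margin spots, 3 interior spots and 1 isolated high spot. It was singled out after the values were seen, and Bnip3 itself, at 1.95 CP10k in it and 0.207 in the other 82 spots, is what chose it. The genes below were not used to choose it, although they come from the same spots. The group had 194947 counts in all and a median of 15130 per spot.

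In these 12 spots several, but not all, other measures of the same pathway were higher. Ldha was at 15.9 CP10k against 10.2 in the other 82 spots (ratio 1.56, 1.38 to 1.76), Pgk1 at 7.13 against 4.40 (1.62, 1.34 to 1.94) and Eno1 at 1.74 against 0.988 (1.77, 1.18 to 2.57). Slc2a1 (1.28, 0.718 to 2.14), Pfkp (1.28, 0.926 to 1.74), Vegfa (1.35, 0.689 to 2.44) and Hk2 (1.40, 0.265 to 4.80) had intervals that covered 1. Both Car9 counts of the interior lay in the group, but with a Bnip3 limit of 1.5 CP10k its 7 spots held 0 of the 2. Of 19 other HIF targets with at least 20 counts, 16 were above 1 and 8 at least 2-fold higher, which is 42.1%, against 4.79% of 9056 genes, and 0 of 7 other members reached 2-fold. Ankrd37, an ankyrin repeat protein, was at 0.821 against 0.116 CP10k (7.08, 3.41 to 14.5), Kdm3a, a histone demethylase, had a ratio of 3.51, Mxi1, an antagonist of Myc, 2.80, and Ero1l, an oxidase of the endoplasmic reticulum, 2.77 (1.72 to 4.33). Pdk1, which keeps pyruvate out of the mitochondria, had 5 counts in the group and 9 outside (4.67, 1.23 to 15.5). Of the other glycolysis genes, Eno2 had 13 counts against 15 (7.29, 3.19 to 16.4) and Tpi1 a ratio of 2.13 (1.80 to 2.51), and these were the only 2 of 15 that reached 2-fold. In that list 10 of 15 were above 1 and 1 was at least 2-fold lower, the lactate transporter Slc16a3 (0.3, 0.00735 to 1.82). Slc16a1 (0.610, 0.335 to 1.03), Hk1 (0.706, 0.356 to 1.27), Pfkm (0.590, 0.156 to 1.60) and Pfkfb3 (0.732, 0.191 to 2.00) were below 1 with intervals that covered 1. Of 7 tested regulators of HIF, 4 were above 1 and 0 were 2-fold higher. At least 2-fold lower was 1, Hif1an, with 0 counts in the group and 25 outside (interval 0 to 1.34). Also below 1 were Hif1a (0.570, 0.241 to 1.16) and Epas1 (0.557, 0.319 to 0.909), of which only the interval of Hif1a covered 1. Of all 9056 genes, 41.4% were above 1 and 1620 genes were at least 2-fold lower.

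Other gene groups moved in these 12 spots too. All 8 cell cycle genes were lower, where 41.4% of all genes were above 1. Their summed level was 4.57 against 9.82 CP10k (ratio 0.465, 0.371 to 0.576). Endothelial markers were at 0.410 against 2.68 CP10k (0.153, 0.0658 to 0.305), AT1 markers at 0.667 against 4.66, AT2 markers at 3.69 against 45.2 (0.0816, 0.0638 to 0.103), and red blood cell genes at 2.67 against 32.3. Neutrophil markers (0.437), T and NK cell markers (0.473) and the markers fixed for 4T1 epithelium (0.503) were lower as well, and fibroblast and smooth muscle genes were higher (1.25, 1.07 to 1.44). Macrophage markers differed less, at 14.4 against 16.9 (0.853, 0.752 to 0.965). Mmp3 was at 0.975 against 2.77 CP10k (0.351, 0.210 to 0.555), whereas Etv4 was at 0.872 against 0.939 and Csn3 at 0.872 against 0.537, both with intervals of the ratio that covered 1. Against the other 35 interior spots alone, chosen as a second comparison, the ratios were 1.48 for Ldha, 1.57 for Pgk1, 9.19 for Ankrd37 and 0.411 for the cell cycle genes. There AT2 markers had a ratio of 0.213, endothelial markers 0.299 and the markers fixed for 4T1 epithelium 0.495. Neutrophil markers (0.820, 0.537 to 1.22), T and NK cell markers (0.678, 0.389 to 1.12) and macrophage markers (0.927, 0.813 to 1.06) had intervals that covered 1 there. The part of cell makeup in these values was not tested.

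**Figure D5:**
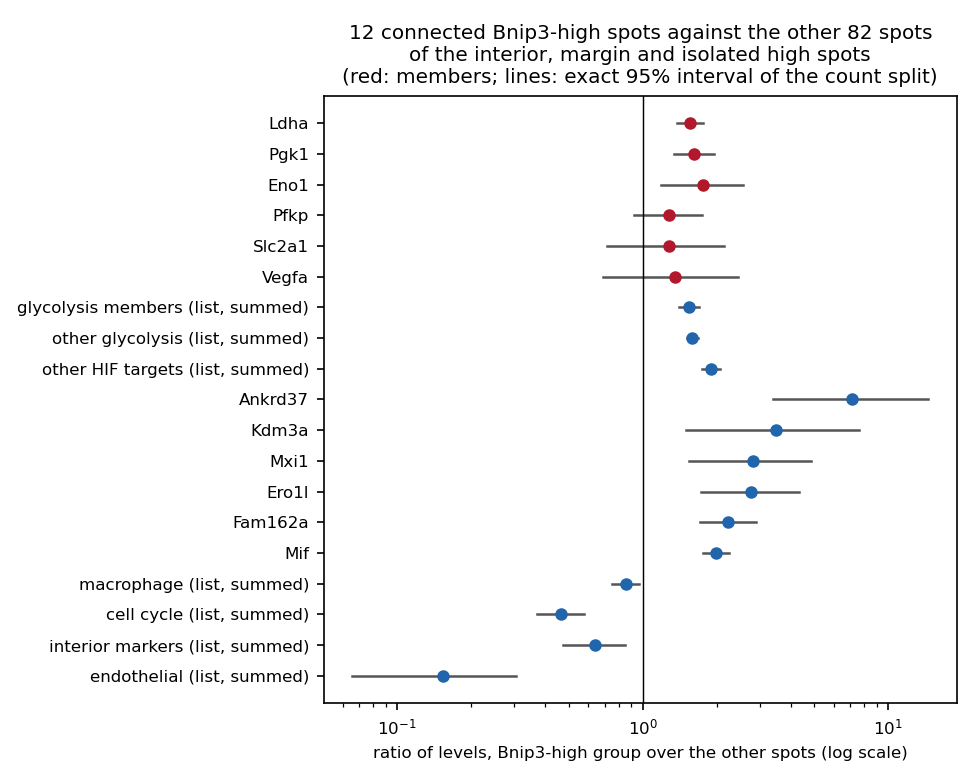
Points show ratios of pooled levels on a log axis, for the 12 connected Bnip3-high spots over the other 82 interior, margin and isolated high spots, for members (red) and for other genes and gene lists (blue), and lines the exact 95% interval. Glycolysis members and other HIF targets lie above 1, with Ankrd37 highest at 7.08, and cell cycle genes (0.465) and endothelial markers (0.153) lie below.

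A second place with high glycolysis transcripts lay in the far region. On the map, 10 connected far spots between 1709 and 1952 µm from the interior had at least 12 CP10k and 5 counts of the glycolysis members, and the next largest such group had 4 spots. They were found from these levels, so the levels are a description: 16.6 CP10k summed, against 5.15 in the other 954 far spots. The spots were shallow, with 62575 counts in all and a median of 6433. Genes not used to find them also differed. Etv4 had 6 counts (ratio 15.2, 5.42 to 34.7), Mmp3 4 counts (12.9, 3.39 to 34.7) and Csn3 0, while cell cycle genes were at 10.6 against 1.39 CP10k (7.57, 5.83 to 9.68). Macrophage markers were 3.85 times higher and T and NK cell markers 4.31 times, and AT1 markers, Vegfa and endothelial markers were at 0.220, 0.261 and 0.210 of the other far spots. Leaving these spots out changed no ratio of interior over far by more than its counting error.

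Among other genes of the pathway, those of glycolysis were 2-fold higher in the interior more often than the other HIF targets were. Of 15 other glycolysis genes, 7 were at least 2-fold higher in interior than in far spots and 2 lower, and 6 and 2 against the control section. Of all genes, 19.3% were higher and 22.8% lower to far, and 17.9% and 28.9% to control. The highest ratios to far were those of Slc16a1, the lactate transporter MCT1 (8.28), Pkm, pyruvate kinase (4.40) and Gapdh (4.14), and to control Slc16a1 (9.85), Pkm (4.72) and Pgam1 (4.16). The lowest to far were Ldhb, the lactate dehydrogenase subunit of oxidative tissues (0.135), Pfkfb3 (0.401) and Slc16a3 (0.938), and to control Ldhb (0.136), Pfkfb3 (0.347) and Pfkm (0.778). Ldha and Ldhb thus ran in opposite directions, with Ldhb at 0.251 CP10k in the interior and 1.86 far away.

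Of 20 tested other HIF targets, 4 were at least 2-fold higher in interior than in far spots and 5 lower, and 3 and 5 against the control section, which is close to the shares of all genes. The highest to far were Egln3, a prolyl hydroxylase (7.93), Mif, a cytokine (6.32) and Fam162a (2.72), and to control Mif (8.36), Fam162a (2.55) and Ero1l (2.14). The lowest to far were Pdk1 (0.302), Ndrg1 (0.366) and Pfkfb4 (0.366), and the same 3 were lowest to control (0.278, 0.364 and 0.357). Of 7 tested regulators of HIF, 0 were 2-fold higher and 2 lower than far away, and 1 and 2 against the control section, beside the same shares of all genes. Hif1a had a ratio of 1.95 to far (1.5 to 2.49) and 2.15 to control, followed by Egln1 at 0.884 in both and by Vhl at 0.876 to far and Arnt at 0.753 to control. Epas1, the HIF-2 subunit abundant in lung endothelium, had the lowest, 0.0446 and 0.0496, then Egln2 (0.481 and 0.410), and then Arnt at 0.605 to far and Hif1an at 0.529 to control.

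Spot by spot, likeness to the members was weak. Over the 38 interior spots, the mean scaled level of the 10 members correlated best with Rpl29 (Pearson's r of 0.50), Fth1, Aldoa and Fau (0.42 each), Tpi1 (0.40), Spcs1 (0.39), Mif (0.37), and Gapdh, Rps3a1 and Col3a1 (0.36 each), among 650 genes with at least 200 counts. Over all 1110 spots of the section the closest were S100a6 (0.53), Fau and Tmsb10 (0.49 each), Rps27a, Rps4x, Rps20, Rps12 and Rps7 (0.48 each), and Rpl23 and Rpl37 (0.47 each). Spots share 1 library and differ in depth, so these values are descriptions.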

How the data were processed

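Both sections were lung sections profiled by Visium, 1 metastatic (4T1, mammary fat pad) and 1 control. The deposited values were unnormalized counts of molecules for every gene in every tissue-covered spot, which the authors made with Space Ranger 1.3.1 on mm10 per the submitters' processing notes. Features that shared a symbol were summed, which concerned 38 symbols, of the lists only Aldoa. The 858 barcodes common to both sections are array positions and not shared cells.

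The members and gene lists were chosen with earlier results of these data known. A level was the sum of a gene's counts in a region per 10000 counts summed there, given with its exact 95% Poisson interval, and the interval of a ratio came from the exact binomial limits of how the counts were divided. A count of 0 was read as allowing 3 counts. A gene was called at 2-fold with at least 50 counts over both groups, or 20 for the Bnip3-high group, and log2 ratios used a pseudocount of 0.5 counts. Section totals were 14657881 and 20329126 counts, so a median spot near 10000 counts gives about 1 count to a gene at 1 CP10k, and genes were read from sums over spots. Interior spots came from Csn3, Etv4 and Mmp3 and not from the stained image, and distances from array positions at 100 µm spacing. Spot classes were the top 10% of spots by each marker list. No doublet or deconvolution step was applied. The rule for named genes took all 10 members, the 3 highest and 3 lowest ratios of each of 4 related lists, and the 10 genes most like the members. Genes named for the Bnip3-high and far groups were chosen after their values were seen. Alternatives changed the score limit, its genes, the distances, the library size, the depth (thinning to 5000 counts), the averaging, the metastasis and the control spots. The functions were tested on simulated data. Calculations ran in Python 3.11.15, with matplotlib 3.10.9, pandas 2.3.3, scipy 1.17.1 and numpy 2.4.6. Promoters came from the RefSeq table for GRCm38.p6, in which all 10 members had an entry.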

Additional observations from a re-analysis of the deposited data

How the results depend on the processing

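Each ratio of the 10 members summed was recomputed with other spots, totals and averages. The ratio of interior over margin was 0.980 and went to 1.25 with a score limit of 0.3, 1.10 with Csn3 alone, 1.19 without Mmp3, 0.885 with spots thinned to 5000 counts, 0.913 in the larger and 1.26 in the smaller metastasis, and 1.19 with margin spots scored under 0.2. The ratio to far and that to control, both 2.14, went to 2.30 and 2.25 with a limit of 0.3, 2.29 and 2.28 with Csn3 alone, 2.34 and 2.33 without Mmp3, 2.02 and 2.02 with interior spots that had no neighbour outside, 1.52 and 1.62 without abundant genes in the total, 1.94 and 1.97 after thinning, and 1.98 and 1.94 as means of per-spot levels. Without control airway spots the ratio to control was 1.89, and without Vegfa the ratios were 3.45 and 4.03. The alternatives without Vegfa, with margin spots under 0.2, with other limits for the Bnip3-high group and without the 10 far spots were chosen after seeing the data. The members at least 2-fold higher numbered 4 to 6 to far and 5 to 6 to control, and those at least 2-fold lower 1 to 4 to both, against 2 and 1 as reported; the 4 came from the 3 interior spots that had no neighbour outside.

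Bnip3 changed direction with the interior score: to the margin 1.53 (limit 0.3), 1.34 (Csn3 alone) and 1.44 (without Mmp3), to far 1.00, 1.03 and 1.13, and to control 1.01 with Csn3 alone and 1.12 without Mmp3. Hk2 had no count, a ratio of 0, over control in the 3 interior spots without a neighbour outside and over far in the margin of the smaller metastasis. Without abundant genes in the total, the share of called genes that were higher went from 45.8% to 23% for interior over far, from 38.2% to 23.4% for interior over control and from 49.1% to 22.1% for margin over far.

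No paired analysis was possible because each condition had 1 section, and leaving out a replicate was not possible either. Intervals cover counting error only, and Car9, Adm and Hk2 had 0 to 11 counts in each region near the metastases.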
